A study of Mus musculus with 6 samples.

Results

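The genes described here drive and police mitosis: the kinases and cyclins of mitotic entry, the spindle checkpoint, the centromere and kinetochore, the chromosomal passenger complex, the spindle motors, and proteins of chromosome structure, cytokinesis and the anaphase-promoting complex. The list names 43 mouse genes grouped by function, and no measured value decides which genes belong to it. It was drawn up with earlier results of these data known. Of these, 42 had a probe set with a single gene symbol in the array's annotation table, out of 18193 genes measured in that way, and Ccnb1 had none. The 42 genes were covered by 91 probe sets. For the 26 genes with more than 1, the brightest probe set, by its mean of 6 arrays, was used.

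In a dividing cell, cyclin B bound to Cdk1 starts mitosis once Cdc25 phosphatases remove the inhibitory phosphates that Wee1 adds. Kinetochores assemble on centromeres and capture spindle microtubules, and the checkpoint proteins restrain the anaphase-promoting complex until every chromosome is attached. Most of these genes are transcribed late in the cell cycle, and undifferentiated embryonic stem (ES) cells are known for rapid division with short gap phases.

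Affymetrix mouse whole-genome arrays measured total RNA from 3 mouse ES cell clones, A3, A4 and A5, with 1 array per culture and 6 arrays in all. The clones derive from the EB3 line, grow in medium with leukemia inhibitory factor, and carry at the ROSA26 locus a FLAG-tagged human GTF2IRD2 coding sequence behind a tetracycline-repressible promoter. GTF2IRD2, a TFII-I family transcription factor, maps to the Williams-Beuren syndrome region of human chromosome 7. The study's methods name the longest annotated coding sequence. The GTF2IRD2 insert that the study prints is far shorter than those printed for the related GTF2I and GTF2IRD1. Which length the clones carry cannot be told from these values. Each clone gave 1 uninduced array (with tetracycline, 0 hours) and 1 induced array (24 hours after tetracycline was removed), so each group held 3 arrays. Every culture, controls included, carries the integrated transgene and its regulator, no line without them was hybridized, tetracycline itself differs between the groups, and each clone descends from 1 selected cell. The human transcript was not measured in these values. The study followed it by RT-PCR in the same 3 clones, where it was higher at 24 hours than at 0 hours in each. Relative to the housekeeping gene Actb, it was highest in A3 at both times, so the clones were not induced to the same level. Induced were compared with uninduced arrays, and clones with each other, and every p-value reflects only how far these 6 cultures spread.

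All values below are log2 expression after robust multi-array averaging (RMA), so a difference of 1 is 2-fold. Levels also depend on the probes, so those of different genes give only a rough guide to whether a signal is present. Array medians were 5.03 to 5.07 and arrays correlated at 0.996 to 0.998 across probe sets. The 10 ES cell markers, Pou5f1 and Nanog among them, had means of 9.83 to 12.58, while 9 fibroblast and feeder markers lay between 2.56 and 6.497, with 4 of them at a mean of 5 or more. Of the other cell types such cultures could hold, 4 of 10 primitive endoderm, 4 of 8 trophoblast, 2 of 7 mesoderm and 4 of 7 neural markers had a mean of 5 or more. The list means varied little over the 6 arrays, the trophoblast markers most, from 5.49 to 5.82, but single markers in a list moved in opposite directions. Both A3 arrays lay above the other 4 arrays for 4 of the 51 markers and below them for 14, as given with the clone values. Over all genes, 14% had both above and 16.6% had both below. In whole cultures, fewer mitotic cells and less mitotic RNA per cell cannot be told apart.

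The members' means over the 6 arrays, each on its own probe set, ran from 7.12 for Cdc25c, a phosphatase that activates Cdk1, to 12.13 for Ube2c, the ubiquitin-conjugating enzyme of the anaphase-promoting complex. They varied little between arrays. The range over the 6 arrays had a median of 0.203 over the members, against 0.263 over the 11927 genes with a mean of at least 5, and went from 0.0649 for Ccna2 (cyclin A2) to 0.673 for Cenpk, a subunit of the inner kinetochore.

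The members share promoter features that the choice of genes did not use. RefSeq promoters (assembly GRCm38.p6) were at hand for 34 of the 43 genes, 39 promoters in all, and the 250 bases before each annotated start were searched on both strands. The element CCAAT, the recognition sequence of the factor NF-Y, was present in 30 of the 39 (76.9%), against 33.8% of 32851 promoters of all genes and 34.7% of the 18109 promoters of genes on the array. At least 2 copies were found in 46.2% of the members' promoters and in 11.4% of those of genes on the array. TTTGAA or TTCGAA, forms of the cell cycle homology region known from late cell cycle promoters, occurred in 33.3% against 13.4%, and CCAAT together with either form in 30.8% against 4.84%. Matches to CCAAT shared no base with matches to TTTGAA or TTCGAA. The Sp1-like GGGCGG was in 66.7% against 48.3%, whereas the E2F-like TTCGCGC, TTTGGCGC or TTCCCGC was in 7.69% against 7.85%. These shares describe letters in a window of fixed length, and binding was not measured.

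In 7 of the 39 promoters (17.9%) 2 CCAAT copies on the same strand started 30 to 36 bases apart, which held for 1.64% of the promoters of genes on the array. Among promoters with at least 2 copies the shares were 7 of 18 (38.9%) and 297 of 2069 (14.4%). That distance was chosen after the positions had been seen, so the difference is a description. The 7 genes were Ccnb1 (cyclin B1), Ccnb2 (cyclin B2), Cdk1, Aurka (Aurora A kinase), Cdca8 (borealin, of the chromosomal passenger complex), Ube2c and Spc25 (of the Ndc80 complex of the outer kinetochore). Their 110 bases before the start are shown because they carry the shared pattern, with Top2a, whose same-strand copies lie 40 bases apart, for contrast. Each sequence runs 5′ to 3′ on the strand of the gene and ends at the base before the annotated start. Capitals mark CCAAT or its reverse complement ATTGG, and TTTGAA or its reverse complement TTCAAA.

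Ccnb1, chr13:100786487-100786596, minus strand: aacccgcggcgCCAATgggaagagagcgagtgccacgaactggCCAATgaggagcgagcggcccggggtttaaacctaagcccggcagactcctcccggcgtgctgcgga
Ccnb2, chr9:70421555-70421664, minus strand: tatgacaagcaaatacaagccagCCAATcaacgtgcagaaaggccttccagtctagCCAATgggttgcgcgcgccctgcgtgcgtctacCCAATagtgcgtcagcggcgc
Cdk1, chr10:69352913-69353022, minus strand: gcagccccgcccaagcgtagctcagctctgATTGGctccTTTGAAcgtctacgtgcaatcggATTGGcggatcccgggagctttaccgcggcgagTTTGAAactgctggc
Aurka, chr2:172370571-172370680, minus strand: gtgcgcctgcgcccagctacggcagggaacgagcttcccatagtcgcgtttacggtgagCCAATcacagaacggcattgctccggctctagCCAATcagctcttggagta
Cdca8, chr4:124936918-124937027, minus strand: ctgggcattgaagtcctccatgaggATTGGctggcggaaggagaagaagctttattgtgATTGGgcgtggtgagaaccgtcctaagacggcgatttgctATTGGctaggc
Ube2c, chr2:164769819-164769928, plus strand: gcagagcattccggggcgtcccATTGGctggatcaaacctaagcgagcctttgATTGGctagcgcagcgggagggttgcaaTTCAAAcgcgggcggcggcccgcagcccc
Spc25, chr2:69206214-69206323, minus strand: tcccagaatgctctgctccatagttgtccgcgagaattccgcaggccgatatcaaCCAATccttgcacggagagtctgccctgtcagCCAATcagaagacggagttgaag
Top2a, chr11:99024190-99024299, minus strand: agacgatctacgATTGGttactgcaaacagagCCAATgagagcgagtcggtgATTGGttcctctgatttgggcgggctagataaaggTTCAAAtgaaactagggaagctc

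Copies in Ccnb1, Cdk1, Aurka and Spc25 start 32 bases apart, those in Ccnb2 33, in Ube2c 31, and in Cdca8 34 and then 40. Cdk1, Ube2c and Top2a also hold TTTGAA or its reverse complement within the stretch shown.

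Removal of tetracycline for 24 hours was followed by no difference in any mitotic gene that passed the test. By limma with Benjamini-Hochberg adjustment over 45037 probe sets, 0 of the 42 members passed an adjusted p of 0.05, where 0% of all probe sets did. At an unadjusted p under 0.05, again 0 members passed, against 3.12% of all probe sets, and the smallest unadjusted p among them was 0.156. With the clone as a replicate block 0 passed at either threshold, where 0% of all probe sets passed after adjustment and 5.77% before it, and the smallest unadjusted p was 0.0824. By the methods' t-test 0 passed after adjustment, as 0% of all probe sets did, and 1, Nuf2, before it, against 3.73%. The differences, induced minus uninduced, were centred on 0: 21 members were higher and 21 lower, with a median of 0.000629, beside -0.0028 over all genes, and extremes of -0.14 (Cenpf) and 0.12 (Ect2). The 95% interval of the difference, not corrected for the number of genes, excluded a 1.5-fold difference in either direction for all 42 members and a 1.3-fold difference for 40 of them. Those of Cenpe and Cenpk were wider, and the widest limit was 1.40-fold. With the clone as a block all 42 intervals excluded a 1.3-fold difference, the widest limit being 1.26-fold for Cenpk.

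**Figure D1:**
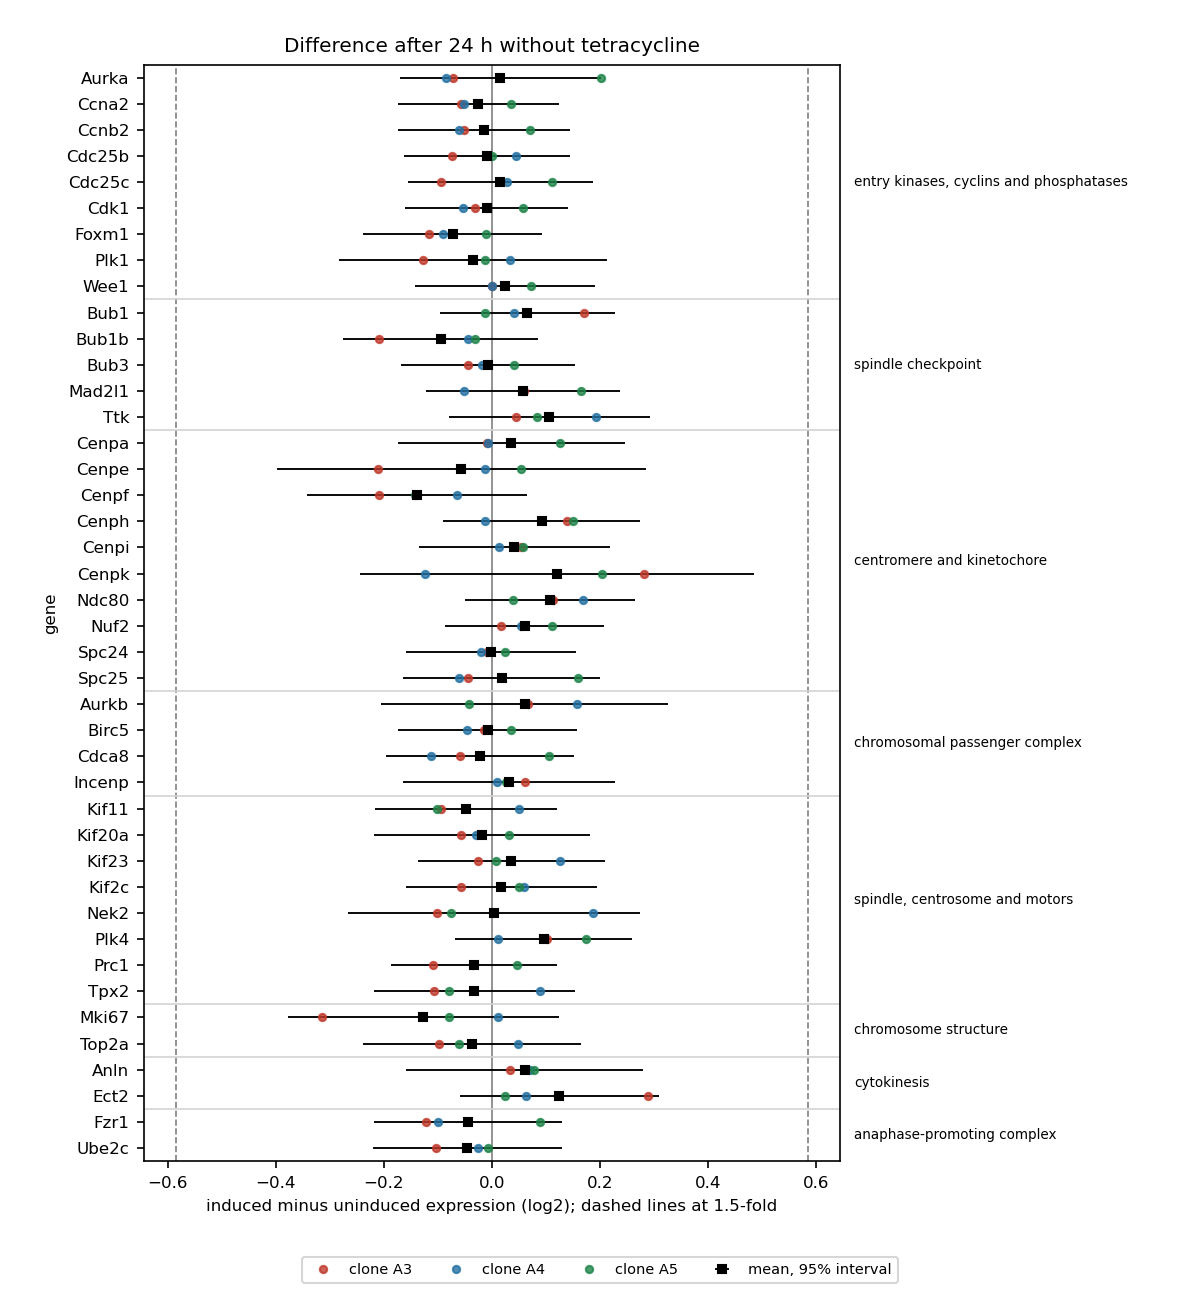
Induced minus uninduced expression (log2) of the 42 measured mitotic genes, grouped by role, with a coloured point for each clone and a black square with a 95% interval for the mean over the 3 clones. All intervals lie between -0.40 and 0.48, inside the dashed lines at a 1.5-fold difference.

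Among the genes of mitotic entry, Cdk1, the kinase that drives it, was at 11.44, 11.43 and 11.41 in the uninduced arrays of A3, A4 and A5 and at 11.41, 11.38 and 11.46 in the induced ones. The groups overlapped, with means of 11.43 ± 0.02 and 11.42 ± 0.04 (SD, n = 3 each). Its partner Ccnb2 differed by -0.01 ± 0.07 (SE), and Ccna2 by -0.03 ± 0.07. Foxm1, a transcription factor of late cell cycle genes, was at 7.57, 7.45 and 7.45 uninduced and 7.45, 7.35 and 7.43 induced. It was lower in all 3 clones, by 0.01 to 0.12, and its difference of -0.07 ± 0.07 (SE) did not pass the test (limma, adjusted p = 1.00). Plk1, a kinase needed from mitotic entry to cytokinesis, differed by -0.04 ± 0.11. The remaining members of this group, Cdc25b, Cdc25c, Wee1 and Aurka, had differences between -0.01 and 0.02.

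The 5 spindle checkpoint genes lay on both sides of 0. Bub1b, which encodes BubR1 of the mitotic checkpoint complex, was at 10.75, 10.60 and 10.73 uninduced and at 10.54, 10.55 and 10.69 induced. The array groups overlapped, since the induced A5 array exceeded the uninduced A4 array, and the difference was -0.10 ± 0.08. Ttk, the Mps1 kinase that starts checkpoint signalling, was at 9.67, 9.43 and 9.57 uninduced and 9.71, 9.62 and 9.65 induced, a difference of 0.11 ± 0.08. Its values also overlapped, with the uninduced A3 array above both of the induced A4 and A5 arrays. Bub1, Bub3 and Mad2l1, the other checkpoint components, differed by 0.07, -0.01 and 0.06.

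Among the 10 centromere and kinetochore genes 7 were higher and 3 lower after induction. Ndc80 and Nuf2 encode the paired subunits that bind microtubules, and with Ect2 they were the members whose 3 induced arrays all lay above the 3 uninduced ones. Ndc80 was at 8.57, 8.49 and 8.55 uninduced and at 8.69, 8.65 and 8.59 induced, a difference of 0.11 ± 0.07. Nuf2 was at 8.65, 8.65 and 8.61 uninduced and at 8.67, 8.71 and 8.72 induced, a difference of 0.06 ± 0.06. Neither difference passed the test (limma, adjusted p = 1.00 for each). The other subunits of the same complex, Spc24 and Spc25, differed by -0.0018 and 0.02. Over the members, 3 of 42 (7.14%) had all induced above all uninduced arrays, where 3.16% of all genes did, and 0 had the reverse order, where 4.07% did.

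Cenpf, a large protein of the outer kinetochore that accumulates late in the cell cycle, had the lowest difference of all members. It was at 9.50, 9.30 and 9.55 uninduced and at 9.29, 9.24 and 9.41 induced, lower by 0.21, 0.07 and 0.14 within A3, A4 and A5. The 2 groups overlapped, since the induced A5 array exceeded the uninduced A4 array. The difference of -0.14 ± 0.09 did not pass the test without the block (adjusted p = 1.00, limma) or with it (adjusted p = 0.843). Cenpa, the histone variant that marks centromeres, was at 11.07, 11.02 and 10.79 uninduced and 11.06, 11.01 and 10.91 induced. It differed by -0.01 in both A3 and A4 and by 0.13 in A5. Cenph and Cenpi of the inner kinetochore differed by 0.09 and 0.04.

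In the chromosomal passenger complex, which corrects faulty attachments, Aurkb (its kinase), Incenp (its scaffold), Birc5 (survivin) and Cdca8 differed by 0.06, 0.03, -0.01 and -0.02. The differences of the 8 spindle, centrosome and motor genes ran from -0.05 to 0.10. Kif11, the motor that separates the spindle poles, was at 9.79, 9.62 and 9.72 uninduced and 9.69, 9.66 and 9.62 induced, and its groups overlapped. Plk4, the kinase that starts centriole duplication, was at 9.91, 10.04 and 9.95 uninduced and 10.01, 10.05 and 10.12 induced. Higher in every clone, by 0.01 to 0.17, it still overlapped between the groups, and its difference of 0.10 ± 0.07 did not pass (limma, adjusted p = 1.00). Nek2, Tpx2, Kif20a, Kif2c, Kif23 and Prc1, which act in centrosome separation, spindle assembly and the central spindle, had differences between -0.03 and 0.04.

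Of the 2 genes of chromosome structure, Top2a encodes the topoisomerase that untangles sister chromatids, and Mki67 the Ki-67 protein that coats mitotic chromosomes. Top2a was at 11.63, 11.37 and 11.60 uninduced and 11.53, 11.42 and 11.54 induced. Mki67 was at 9.92, 9.55 and 9.85 uninduced and 9.61, 9.56 and 9.77 induced. In each, A4 was the lowest clone in both conditions, and the groups overlapped. Their differences were -0.04 ± 0.09 and -0.13 ± 0.11, and that of Mki67 was uneven: -0.31 within A3, 0.01 within A4 and -0.08 within A5.

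The cytokinesis gene Ect2, which activates RhoA at the cleavage site, had the highest difference. It was at 10.37, 10.38 and 10.42 uninduced and 10.66, 10.45 and 10.45 induced, so the groups did not overlap. Most of its difference of 0.12 ± 0.08 came from A3, at 0.29, while A4 and A5 showed 0.06 and 0.02. Anln, the anillin of the cleavage furrow, was at 11.13, 10.87 and 10.92 uninduced and 11.16, 10.94 and 11.00 induced, a difference of 0.06 ± 0.10 in groups that overlapped. Without the induced A3 array it became -0.0045.

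Ube2c was at 12.27, 12.09 and 12.12 uninduced and 12.16, 12.06 and 12.11 induced, a difference of -0.05 ± 0.08. The groups overlapped, the uninduced A3 array stood above the rest, and without that array the difference was 0.0091. Fzr1, the Cdh1 coactivator of the same complex, differed by -0.04.

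The sign of the difference was the same in all 3 clones for 12 of the 42 members. It was higher throughout in 8 (19.0%; 12.9% of all genes), namely Ttk, Cenpi, Ndc80, Nuf2, Incenp, Plk4, Ect2 and Anln, and lower throughout in 4 (9.52%; 13.3% of all genes), namely Foxm1, Bub1b, Cenpf and Ube2c. Several of these log2 differences grew or shrank by a factor of more than 1.5 when 1 array or clone was left out. That factor compares differences with each other and is not a fold of expression. Ttk was 0.04 without the uninduced A4 array, Foxm1 -0.03 without the uninduced A3 and -0.04 without the induced A4 array, and Cenpf -0.21 without the uninduced A4 and -0.09 without the uninduced A5 array. Bub1b was -0.04 without clone A3, Ect2 0.05 without the induced A3 array, and Plk4 0.06 without clone A5. With the mean of all probe sets of a gene Cenpf was -0.05 and Bub1b -0.06. All stayed short of the threshold.

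The clones differed in balance. Within A3, 28 of 42 members were lower in the induced array (median -0.05), within A4 20 were higher and 22 lower (median -0.0039), and within A5 29 were higher and 12 lower (median 0.04). The medians over all genes in the same 3 pairs were -0.01, 0.00090 and 0.0039. With 1 array per clone and condition, the differences between clones in response were not tested.

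**Figure D2:**
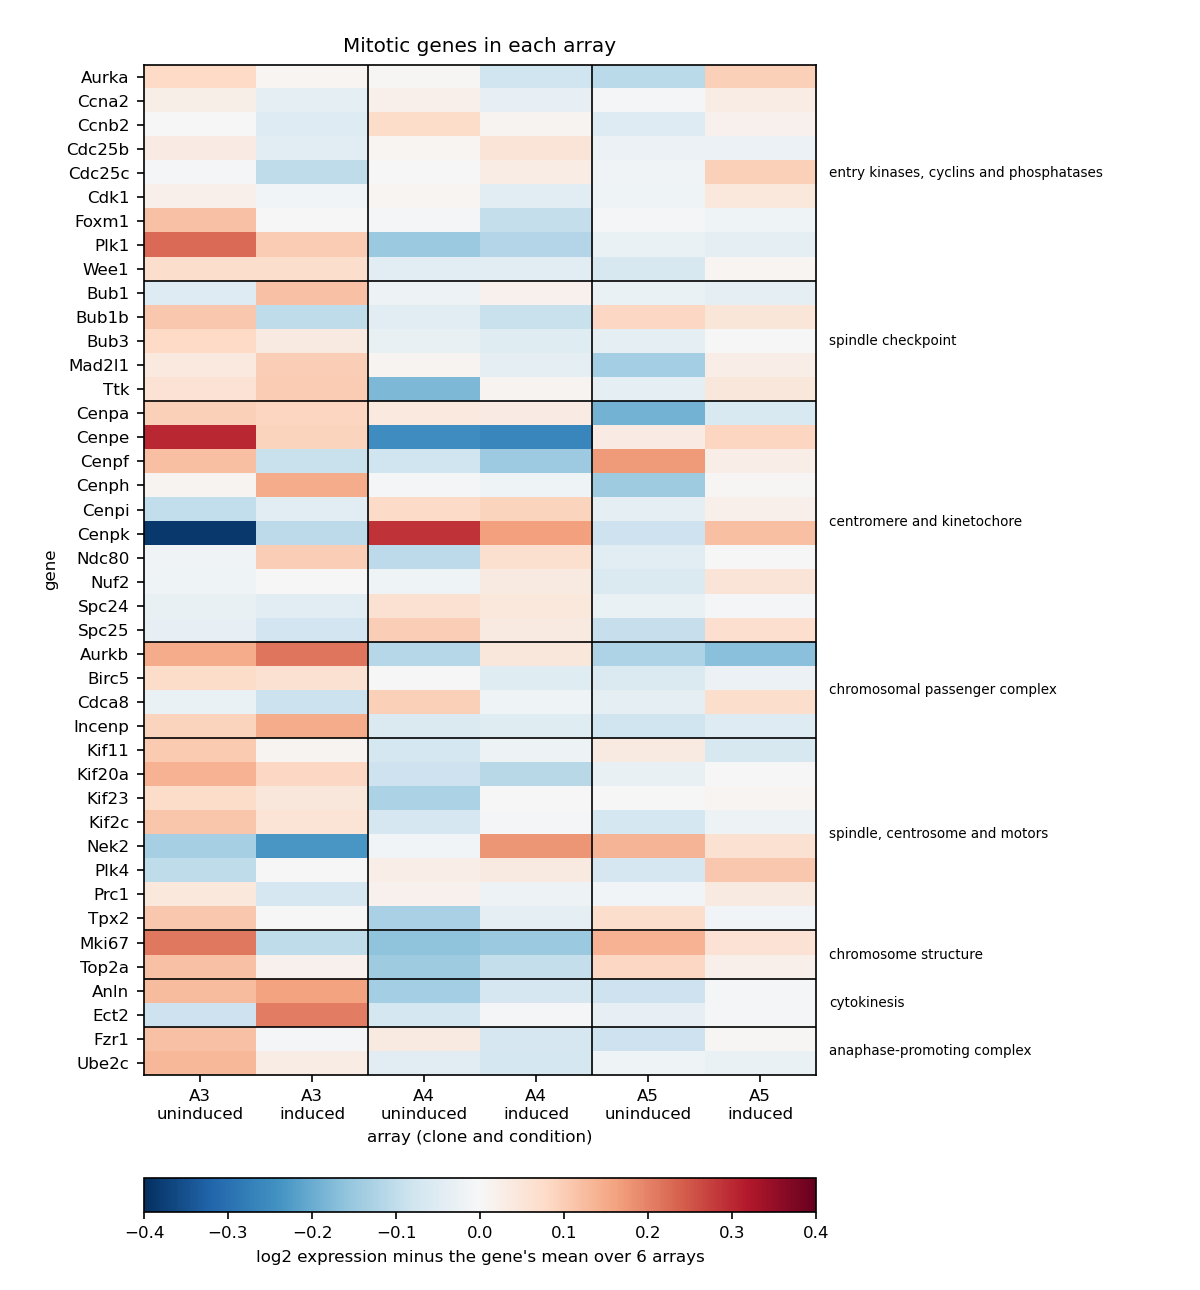
Expression of the 42 measured mitotic genes in each of the 6 arrays (columns, by clone and condition), as log2 value minus the mean of the gene over the arrays (colour), with the genes grouped by role. The uninduced A3 array is the warmest column, with a median of 0.071 over the genes, and the uninduced A5 array has the lowest median, -0.034.

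Between clones, as between conditions, no member passed after adjustment. Clones were compared in a model with clone and induction, so that the 2 arrays of a clone served as its replicates. The moderated F-test of limma called 0 of 42 members at an adjusted p under 0.05, against 2.18% of all probe sets (980), with a smallest adjusted p of 0.104. Unadjusted p was under 0.05 for 6 members (14.3%), Plk1, Cenpe, Cenpk, Aurkb, Nek2 and Anln, against 15% of all probe sets. It was for 2484 of the 11927 genes with a mean of at least 5. The contrast of A3 with the mean of A4 and A5 called 0 members and 3.46% of all probe sets. A3 was singled out because earlier results of these same arrays had put it apart. The p-values of this contrast are therefore not those of a comparison chosen blind to the data. At an unadjusted p under 0.05 in this contrast, 6 members (14.3%) were higher in A3, where 8.58% of all probe sets were. Lower were 2 (4.76%), where 8.59% were. Among the 11927 genes with a mean of at least 5, which are nearer the members in level, 1459 were higher and 1486 lower. A4 and A5 differed in 0 members after adjustment (0.0511% of all probe sets) and in 3 before it (7.14%, against 7.22%).

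The 5 genes with the widest spread of clone means include 2 kinetochore genes that lay in opposite directions in A3. Cenpk was at 7.96 and 8.24 in A3 (uninduced, then induced), 8.64 and 8.51 in A4, and 8.26 and 8.47 in A5. Both A3 arrays lay below the other 4, and A3 minus the mean of A4 and A5 was -0.37 ± 0.10 (SE; limma, adjusted p = 0.0912), about 1.29-fold. Cenpe, the motor that carries chromosomes along microtubules, was at 9.24 and 9.03 in A3, 8.70 and 8.68 in A4, and 8.98 and 9.03 in A5. Its A4 arrays were the lowest, A3 exceeded the mean of the others by 0.29 ± 0.08 (limma, adjusted p = 0.110), and A4 lay below A5 by 0.31 (A4 minus A5 -0.31 ± 0.10, adjusted p = 0.600). The A3 contrast of Cenpe was 0.18 without the uninduced A3 array (limma, adjusted p = 0.621) and 0.41 without the induced one, and that of Cenpk -0.25 and -0.49. The other probe set of Cenpe gave a contrast of 0.40 for A3, whereas the other probe sets of Cenpk had means of only 3.16 and 2.43, near the bottom of the scale.

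Aurkb was at 9.06 and 9.13 in A3, 8.80 and 8.96 in A4, and 8.79 and 8.75 in A5, with both A3 arrays above the other 4 and a contrast of 0.27 ± 0.08 (limma, adjusted p = 0.116). Its other probe set gave 0.04, so the 2 measurements of Aurkb disagree in size, and both are of classes that can match more than 1 transcript. Plk1 was at 10.80 and 10.67 in A3, 10.42 and 10.46 in A4, and 10.55 and 10.53 in A5, a contrast of 0.25 ± 0.08 (limma, adjusted p = 0.138). In A4 and in A5 the 2 values of Plk1 lay closer to each other than to any of another clone. Nek2, a centrosomal kinase, was lower in A3, at 10.02 and 9.92, than in A4 (10.15 and 10.33) or A5 (10.29 and 10.22), with a contrast of -0.27 ± 0.09 (limma, adjusted p = 0.147). Anln, Incenp and Kif20a, the last a motor of the central spindle, were higher in A3 by 0.22, 0.18 and 0.17.

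**Figure D3:**
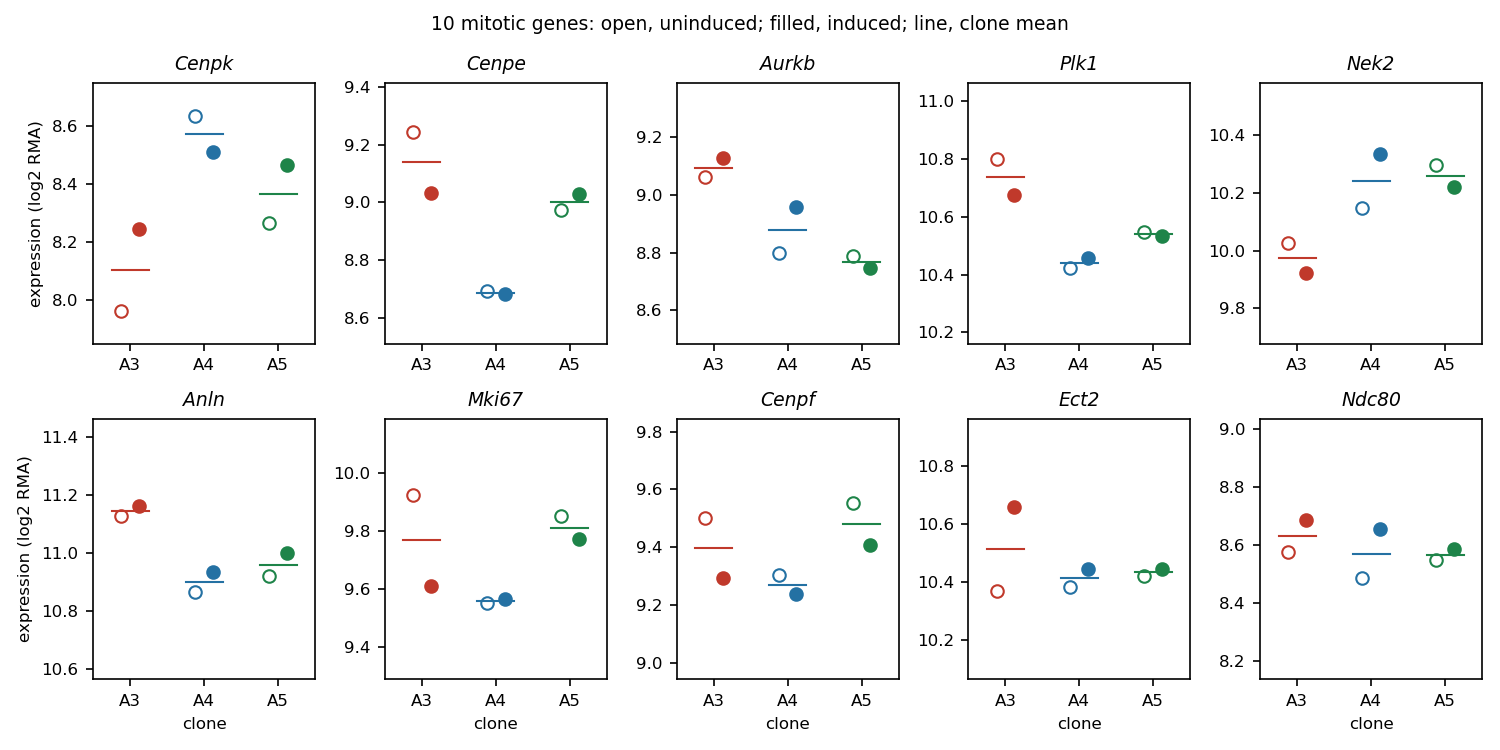
Expression (log2 RMA) of 10 mitotic genes by clone, with open circles for uninduced arrays, filled circles for induced arrays and a line at the mean of the clone, each panel spanning the same length of the log2 scale. Cenpk and Nek2 have both A3 arrays at the bottom, Aurkb, Plk1 and Anln have them at the top, and Cenpe, Mki67 and Cenpf have their lowest clone mean in A4.

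These calls changed with the filter, which alters both the number of tests and the variance prior, and with the prior alone. When probe sets with a mean under 5 were left out, 4 of 42 members passed the A3 contrast, Plk1, Cenpe, Cenpk and Aurkb, with adjusted p of 0.0353 (Cenpk) to 0.0486 (Plk1). When limma's prior was allowed to follow intensity, 7 of 42 passed: these 4 and Incenp, Nek2 and Anln, with adjusted p of 0.0116 (Plk1) to 0.0293 (Incenp). The count over all features also moved. It was 1558 of 45037 probe sets (3.46%) at first and 3307 of 45037 with the trend. With the filter, which tests fewer probe sets, it was 2824. Leaving out the induced A4 array called Cenpk alone, at an adjusted p of 0.0359.

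The 3 genes that differed between A4 and A5 at an unadjusted p under 0.05, Cenpe, Cenpf and Mki67, were lower in A4, by 0.31, 0.21 and 0.25. None passed after adjustment, and their share of the 42 members (7.14%) was close to the 7.22% of all probe sets with such a p. Their 95% intervals reached from -0.53 to -0.09 for Cenpe, from -0.41 to -0.01 for Cenpf and from -0.48 to -0.02 for Mki67. These intervals leave out 0 because the genes were picked by that p.

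**Figure D4:**
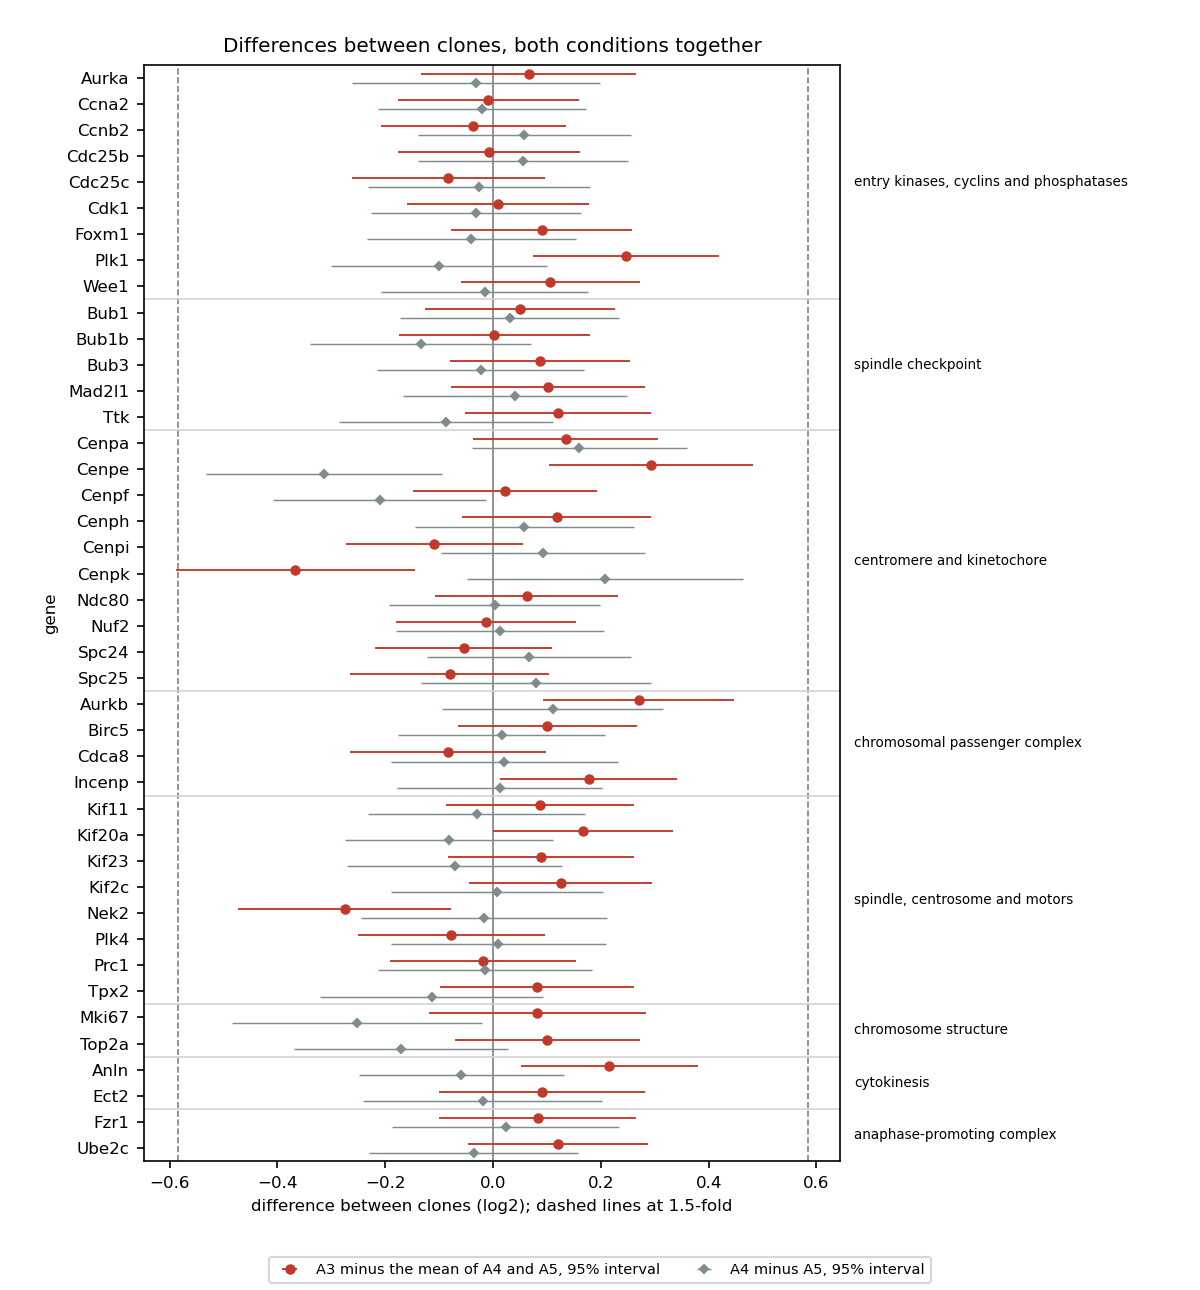
Differences between clones for the 42 measured mitotic genes (log2, uninduced and induced arrays together), with A3 minus the mean of A4 and A5 as red circles and A4 minus A5 as grey diamonds, each with its 95% interval. More circles lie right of 0 (29) than left of it (13), and Cenpk, at -0.37, is the lowest.

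In A3 the members were shifted slightly upward as a group: 29 of 42 were higher in A3 than in the mean of A4 and A5 and 13 lower, with a median of 0.08 beside -0.01 over all genes. Leaving out 1 array at a time kept this median between 0.0474 and 0.103. Both A3 arrays lay above the other 4 for 17 members (40.5%; 14% of all genes) and below them for 4 (9.52%; 16.6% of all genes). Of the 11927 genes with a mean of at least 5, 2159 had both above and 2323 had both below. The 17 were Wee1, Plk1 and Foxm1 of mitotic entry, Bub3, Mad2l1 and Ttk of the checkpoint, Cenpa, Cenpe and Cenph of the kinetochore, Aurkb, Incenp and Birc5 of the passenger complex, the motors Kif20a, Kif2c and Kif23, and Anln and Ube2c. The 4 lower ones were Cenpi, Cenpk, Spc24 and Nek2. By role, 5 of 9 genes of mitotic entry, 5 of 5 checkpoint, 5 of 10 kinetochore, 3 of 4 passenger complex and 5 of 8 spindle genes were higher in A3, as were both genes each of chromosome structure, cytokinesis and the anaphase-promoting complex. These counts were not tested and include differences as small as 0.0027 ± 0.08 (Bub1b). The shift is small: for 41 of 42 members the 95% interval of this contrast excluded a 1.5-fold difference in either direction, Cenpk being the exception with a limit of 1.504-fold, and for 36 it excluded a 1.3-fold difference.

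The uninduced A3 array contributed most. For 17 members (40.5%; 19.1% of all genes) it held the highest of the 6 values, and for 9 (21.4%; 17.1% of all genes) the uninduced A4 array held the lowest. The median of the members relative to their own means was 0.071 in the uninduced A3 array and 0.0091 in the induced one, and ran from -0.034 to 0.0086 in the other 4. The poly-A spikes, added to the RNA before labelling, moved with this pattern in part. They were highest in A3 within each condition, where uninduced A3, A4 and A5 gave 6.58, 6.42 and 6.06 and induced ones 6.91, 6.51 and 6.57. The spikes added at hybridization ran from 10.04 to 10.23, and the difference between the 3′ and 5′ probe sets of Actb, a sign of RNA quality, from 0.27 to 0.36. Markers of cell state also differed in A3. Tfap2c, a trophoblast factor also known from other early cells, was at 8.32 and 8.31 in A3 (uninduced, then induced) and at 9.05 to 9.42 in the other 4 arrays, and Eomes at 6.04 and 5.98 against 6.61 to 7.01. Ascl2 of the same list ran the other way, at 7.61 and 7.85 against 6.64 to 7.21, so the list mean hides them. Of the 10 ES cell markers, Zfp42 and Fgf4 had both A3 arrays above the other 4, and Nanog, Klf4, Dppa4 and Utf1 had them below. Over all genes the shares were 14% above and 16.6% below. Gsc also had both above, and Pdgfrb, Gata6, Gata4, Afp, Hand1, Mesp1, Kdr and Map2 had both below. The means of these weak signals ran from 3.18 (Gsc) to 5.76 (Mesp1). The part of transgene level, spikes, RNA quality and cell state in the A3 values was not tested.

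Mitotic genes outside the list were treated the same way. Of 101 such genes 99 were measured, and 0 passed any of the limma tests after adjustment. For induction 2 had an unadjusted p under 0.05, where 3.12% of all probe sets did. For the A3 contrast 18 of the 99 had one and were higher in A3 and 2 of the 99 were lower, where 8.58% and 8.59% of all probe sets were. Of the 11927 genes with a mean of at least 5, 1459 were higher and 1486 lower. They were higher in A3 in 67 of 99, with a median of 0.06. Among the 29 other genes of spindle, motors and cytokinesis, 25 were higher in A3 (median 0.15), as were all 7 condensin subunits, while the 24 other centromere and kinetochore genes were split 11 to 13. The 42 DNA replication genes, which act in the preceding phase of the cycle, were higher in A3 in 32, with a median of 0.05, and 0 of them passed (2 at an unadjusted p under 0.05 in the A3 contrast, both higher). So an A3 median above that of all genes was seen in all 3 lists.

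**Figure D5:**
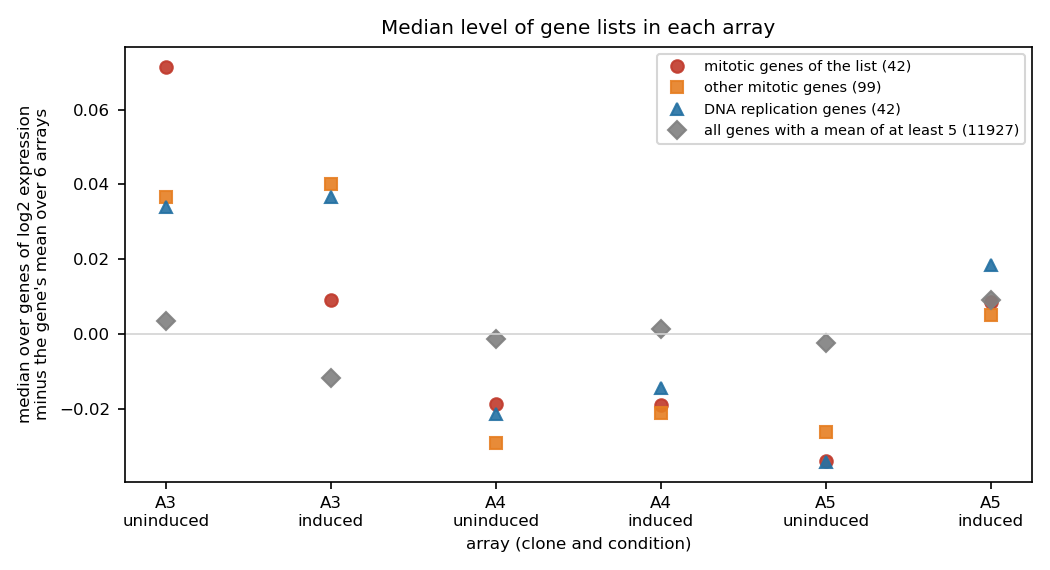
Median over the genes of a list of log2 expression minus the mean of each gene over the 6 arrays, by array, for the 42 mitotic genes, 99 other mitotic genes, 42 DNA replication genes and 11927 genes with a mean of at least 5. In both A3 arrays the 3 lists are above 0, while the uninduced A5 array has them at -0.026 to -0.034.

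Over the 6 arrays the members' profiles were only loosely alike. The median correlation between pairs of members was 0.168, beside 0.108 among the other mitotic genes, 0.188 among the replication genes and 0.00607 among genes with a mean of at least 5. Without the A3 arrays it was 0.154. The 6 arrays are 3 clones measured in 2 conditions, so these are descriptions. By role, the 3 groups of 2 genes, each a single pair, had 0.910 (Top2a and Mki67), 0.751 (Ube2c and Fzr1) and 0.562 (Ect2 and Anln). The medians were 0.368 among the checkpoint genes, 0.328 for mitotic entry, 0.219 for the passenger complex, 0.0472 for the spindle genes and 0.0308 for the kinetochore genes.

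The values were also set beside the promoter features shown above. The 6 measured members with closely spaced CCAAT copies (Ccnb2, Cdk1, Aurka, Cdca8, Ube2c and Spc25) had a median A3 contrast of -0.01, with 3 of 6 higher in A3, and a median induction difference of -0.01, with 2 of 6 higher. The 27 other members with a promoter had medians of 0.09 and 0.02, with 20 and 15 higher. The 11 members with TTTGAA or TTCGAA had a median A3 contrast of 0.09, with 9 higher, against 0.06, with 14 higher, in the 22 without. Their median induction difference was -0.03, with 2 of 11 higher, against 0.04, with 15 of 22 higher. These differences were not tested.

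Of the members' 49 other probe sets, 0 passed the limma test of induction, the A3 contrast or the F-test of clones after adjustment. Their induction differences ran from -0.21 to 0.25 and had the sign of the representative probe set in 32 of 49, while their A3 contrasts ran from -0.37 to 0.40 and had that sign in 39 of 49.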

How the data were processed

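Total RNA from 6 cultures was hybridized to Affymetrix Mouse Genome 430 2.0 arrays. The deposited values are log2 summaries, 1 per probe set, made by the authors with RMA in the affy package, per the submitters' processing notes; the versions, and which arrays were normalized together, are not given in the sources used here. Of 45101 probe sets, 64 manufacturer's controls were left out of the tests. By the array's annotation, 34945 probe sets have 1 symbol, 932 have several and 9160 have none. Promoter sequences came from RefSeq (GRCm38.p6).

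Groups and clones were taken from the labels. Induction was tested in R 4.3.3 with lmFit and eBayes of limma 3.58.1, two-sided and without a block, since the study states no pairing for its t-test, with no filter on intensity. Clones were compared in a limma model with clone and induction. The contrast of A3 with A4 and A5 was chosen because earlier results of these data put A3 apart. Benjamini-Hochberg adjusted p under 0.05 over 45037 probe sets was the threshold, and the number of arrays limits the precision. Uninduced and induced arrays of a clone correlated, after the group means were removed, at 0.524, 0.376 and 0.210, against -0.407 to 0.0689 for different clones, so the clones pair the arrays, and the fit with the clone as a replicate block was run as an alternative. Other alternatives were the methods' t-test, a mean of at least 5, an intensity trend, repeated normalization, other probe sets for a gene and leaving out arrays. The pipeline was tested on simulated data.

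The members and lists were chosen with earlier results of these data known. Values per array are given for the 5 members with the highest differences of 1 sign in all 3 clones, the 4 with the lowest, the 5 with the largest range of clone means, and representatives of each role; Nuf2 was added after its values were seen.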

Additional observations from a re-analysis of the deposited data

How the results depend on the processing

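For the mitotic genes and induction, 0 members passed under each alternative run: the replicate block (0), the methods' t-test, the filter, the intensity trend, both normalizations, other probe sets and each left-out array or clone. The replicate block changed no call. Leaving out arrays or clones kept the median induction difference between -0.0186 and 0.0208. The 211 repeated values of single genes covered induction differences and A3 contrasts together. Of these, 199 kept direction and side of the threshold, and 10, all of them A3 contrasts, newly passed it. The other 2, both induction differences, turned sign. Ube2c was at 0.0091 without the uninduced A3 array (range without 1 array or clone -0.0799 to 0.0091). Anln was at -0.0045 without the induced A3 array (-0.0045 to 0.139).

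The clone results changed with the filter, which alters the number of tests and the prior together, and with the prior. With a mean of at least 5, the F-test called 1885 probe sets and 1 member (Cenpe), the A3 contrast 2824 and 4 members, and A4 against A5 38 probe sets. With an intensity trend, where all 45037 probe sets were tested, these were 2641 and 5, 3307 and 7, and 59. Without 1 array the F-test called 248 to 860 probe sets and 0 members, and without 1 clone 26 (A3 left out) to 1427 and 0 to 1 members (Cenpe without A5). Without 1 array, the A3 contrast called 382 to 1277 and 0 to 1 members (Cenpk without the induced A4 array), and A4 against A5 6 to 26. Without A3, the median correlation between members was 0.154. A clone left with 1 array is assumed to vary like the others. Fewer arrays leave less to estimate the spread, and other causes were not tested.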
